A study of Homo sapiens with 6 samples.

Results

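The 10 enzymes of amino acid and glutathione metabolism ASNS, CHAC1, CTH, CBS, PYCR1, ALDH18A1, GPT2, PCK2, GOT1 and BCAT1 were followed by their transcript levels in a rhabdomyosarcoma cell line exposed to an inhibitor of HSP70 chaperones. They were chosen by gene name as enzymes linked to the transcription factor ATF4, with earlier results of these data known. All 10 were found among the 55401 gene names of the files, and all 10 were among the 15148 that were tested, for which some group had to average at least 1 TPM (transcripts per 1000000, a unit that is corrected for gene length).

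RNA was sequenced from RMS13, a human alveolar rhabdomyosarcoma line, and from its derivative RMS13-R, which had acquired resistance to the HSP70 inhibitor MAL3-101. Parental cells received the vehicle DMSO or MAL3-101 at 10 µM and resistant cells received MAL3-101 at the same dose, all for 9 h, which gives 3 groups of 2 libraries, A and B. Cells grew in RPMI medium with serum. The titles of the DMSO libraries also carry the drug's name, and their descriptions, which name DMSO, were followed. A resistant line without the drug was not analysed here, so the line and its response to the drug cannot be told apart in a comparison of resistant with parental libraries. The resistant line is a single derived line, and no label tells whether the A and B libraries came from different cultures, so the p-values reflect nothing beyond the spread of these 6 libraries.

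Amino acid enzymes of this kind move nitrogen and carbon between the citric acid cycle, glutamate and the non-essential amino acids. Several of their genes are textbook targets of ATF4, a transcription factor whose translation rises when cells phosphorylate eIF2α under amino acid shortage or stress in the endoplasmic reticulum. ATF4 binds composite sites of the form TGATGNAA, often called amino acid or C/EBP-ATF response elements, together with a partner protein, and it raises enzymes that make asparagine, proline and cysteine as well as CHAC1, which breaks glutathione down.

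Because of that background, the sequence just upstream of the genes was searched for TGATGNAA and for TGACGTCA, the cyclic AMP response element, on both strands, in RefSeq promoter windows on GRCh38.p14 that run from 250 bases before a transcript start to 50 bases after it. The table matched 8 of the 10 enzymes, with 15 windows. PYCR1 and GPT2 were not among its entries. TGATGNAA stood in 4 of the 15 windows, 1 each for ASNS, GOT1, BCAT1 and CHAC1, and in 1270 of all 35116 windows, or 3.62%. TGACGTCA stood in 0 of the 15 windows and in 1.85% of all windows. The 4 stretches that hold the match are shown 5′ to 3′ on the strand of each gene, 88 bases each, with the 8 matched bases in capitals. In ASNS and BCAT1 the match reads forward, and in GOT1 and CHAC1 it lies on the opposite strand and so reads TTGCATCA.
ASNS, chr7:97872429-97872516, minus strand: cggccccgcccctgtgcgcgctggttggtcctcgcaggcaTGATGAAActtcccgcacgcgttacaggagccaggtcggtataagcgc
GOT1, chr10:99430775-99430862, minus strand: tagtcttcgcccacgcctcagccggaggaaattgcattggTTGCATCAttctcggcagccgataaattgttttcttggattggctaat
BCAT1, chr12:24949102-24949189, minus strand: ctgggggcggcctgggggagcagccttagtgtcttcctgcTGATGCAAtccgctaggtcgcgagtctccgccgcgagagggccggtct
CHAC1, chr15:40953222-40953309, plus strand: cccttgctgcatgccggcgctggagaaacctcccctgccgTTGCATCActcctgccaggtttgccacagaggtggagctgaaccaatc
The matched bases lay 68 to 61 bases before the start of ASNS, 198 to 191 before GOT1, 48 to 41 before BCAT1 and 209 to 202 before CHAC1. ASNS has 2 windows and BCAT1 has 5, of which 1 each held the match. These are matches of letters, and no binding was measured in these libraries. As the enzymes were chosen for a link to ATF4, their share of matches is a description and was not tested.

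Read depth cannot be recovered from TPM, and no counting error is given. From 13918 to 14334 genes per library reached 1 TPM. The DMSO pair spread most, with 171 tested genes at least 2-fold apart on the log2(TPM + 1) scale, against 67 and 40 in the parental and resistant pairs with the drug. Of 10 markers of muscle lineage and rhabdomyosarcoma, 7 stood at 1 TPM or more in every library, with a summed level of 2344 to 2981 TPM. MYF5, MYF6 and PAX7 were at or near 0. Of the 7 tested, 4 were called higher and 3 lower in resistant than in parental cells with the drug. Over all tested genes those shares were 21.3% and 34.8%. CHRNA1 went from a mean of 313.5 to 51.0 TPM, FGFR4 from 400 to 205 TPM and MYOD1 from 716 to 485 TPM. PAX3 went from 49.4 to 76.0 TPM, DES from 319 to 475 TPM, MYOG from 470 to 679 TPM and CDH15 from 342 to 392.5 TPM. Leukocyte and hepatocyte markers summed to at most 2.55 and 1.48 TPM.

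Markers of 3 other cell types also moved between the groups. The 8 epithelial markers summed to 16.6 and 18.2 TPM with DMSO, 32.3 and 32.1 TPM in parental cells with the drug, and 19.3 and 18.1 TPM in resistant cells. The resistant and DMSO sums overlapped. Both tested ones, EPCAM and OCLN, were called higher with the drug in parental cells and lower in resistant than in parental cells with it. Over all tested genes 22.6% were called higher in the first comparison and 34.8% lower in the second. The EPCAM call for the drug in parental cells was kept in 14 of 16 alternative fits. Against DMSO, resistant cells had OCLN called higher and EPCAM lower, where 20.9% of all tested genes were higher and 29.7% lower. With DMSO, in parental cells with the drug and in resistant cells, OCLN averaged 13.2, 25.5 and 18.0 TPM and EPCAM 3.525, 5.85 and 0.21 TPM. KRT5 was at 0, and KRT14, KRT19 and CDH1 stayed at or below 0.43 TPM. The 7 fibroblast markers summed to 39.8 to 47.1 TPM in parental and 138 to 139 TPM in resistant libraries. Of the 4 tested, 2 were called higher and 2 lower in resistant than in parental cells with the drug. The shares over all tested genes were 21.3% and 34.8%. COL3A1 went from a mean of 15.6 to 134 TPM, while COL1A1 went from 17.7 to 2.20 TPM and PDGFRA from 5.26 to 0.39 TPM, and DCN was at or below 0.57 TPM throughout. Endothelial markers summed to 1.85 to 3.18 TPM in parental and 20.15 to 21.97 TPM in resistant libraries, where TEK made up 18.9 and 20.9 TPM. The part of these markers in the differences was not tested, and in bulk RNA fewer cells of a type and less RNA per cell cannot be told apart.

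With MAL3-101 the parental cells held more transcript of 9 of the 10 enzymes. CHAC1, ASNS and CTH rose most, by 27.3-fold, 10.3-fold and 8.92-fold in mean TPM, and GPT2, CBS, PCK2, GOT1, PYCR1 and BCAT1 rose by 1.47-fold to 3.54-fold. ALDH18A1 was the exception. A gene was called at a Benjamini-Hochberg adjusted p under 0.05 in limma over all tested genes, and 9 enzymes were called higher and 0 lower, where 22.6% of all tested genes were called higher and 18.2% lower. The median log2 fold change was 1.46 over the 10 enzymes and 0.02 over all tested genes.

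In resistant cells with the drug, 8 of the 10 enzymes were called lower than in parental cells with the drug and 0 higher, where 34.8% of all tested genes were called lower and 21.3% higher. CBS and PYCR1 were the 2 not called. The median log2 fold change was -1.03 over the enzymes and -0.10 over all tested genes. Of all called genes 38.0% were higher on the TPM scale, against 49.2% after median-ratio scaling and 50.6% after upper-quartile scaling, which moved the median of all genes by 0.09 and 0.11. All 8 enzymes were called lower under both scalings. Of all 15148 tested genes 4362 were called lower with median-ratio and 4237 with upper-quartile scaling.

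Against parental cells with DMSO, resistant cells with the drug had 6 enzymes called higher and 1 lower, where 20.9% of all tested genes were called higher and 29.7% lower. The enzymes called higher were CHAC1, CBS, ASNS, PYCR1, PCK2 and GOT1, and the enzyme called lower was ALDH18A1. Under either scaling 8 were called higher, with CTH and GPT2 added, and 1 lower. Of all 15148 tested genes 3972 were then higher and 3846 lower with median-ratio scaling, and 3867 and 3926 with upper-quartile scaling. The share of higher genes among all called genes went from 41.2% to 50.8% with median-ratio and 49.6% with upper-quartile scaling. The 3 comparisons share libraries, so each is given by its own values. The summed level of the 10 enzymes was 497 TPM in DMSO library A and 419.8 TPM in B, 1139 and 1133 TPM in parental cells with the drug, and 662 and 666 TPM in resistant cells with the drug. PYCR1 had the highest level of the 10 in every library.

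**Figure D1:**
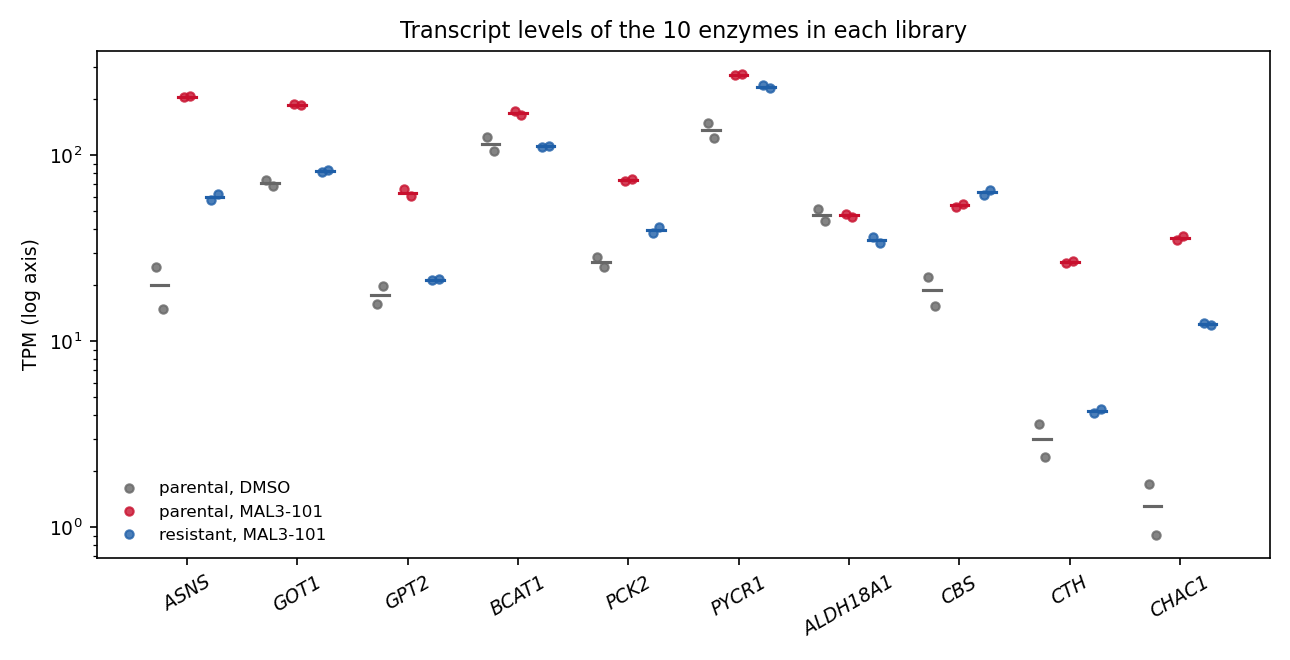
Levels of the 10 enzymes in TPM on a log axis, with a point for each of the 2 libraries of each group and a bar at the group mean. For 7 enzymes the resistant libraries lie between the DMSO libraries and the parental libraries with the drug, while CBS is highest in resistant cells, ALDH18A1 lowest there, and BCAT1 overlaps DMSO. The share of all tested genes with such an order was not counted, so the 7 are a description only.

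ASNS, asparagine synthetase, makes asparagine from aspartate with the amide nitrogen of glutamine. Its level was 24.98 and 15.01 TPM with DMSO, 205 and 208 TPM in parental cells with MAL3-101, and 57.6 and 62.2 TPM in resistant cells with the drug. The groups did not overlap, and the parental libraries with the drug were highest. The difference on the log2(TPM + 1) scale was 3.35 (SE 0.19, adjusted p = 4.87e-05 in limma) for the drug in parental cells. Resistant cells with the drug were 3.44-fold below parental cells with it, a log2 difference of -1.77 (SE 0.19, adjusted p = 0.00027). They stood 2.996-fold above DMSO, a log2 difference of 1.58 (SE 0.19, adjusted p = 0.000548). Among all 15148 tested genes ASNS ranked 16 from the top for its rise in parental cells.

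GOT1, the cytosolic aspartate aminotransferase, exchanges the amino group of aspartate and glutamate and supplies the malate-aspartate shuttle. It measured 74.0 and 68.2 TPM with DMSO, 189 and 185 TPM in parental cells with the drug, and 81.1 and 83.1 TPM in resistant cells with the drug. The last group lay just above DMSO with no overlap. The rise in parental cells was 2.63-fold, or 1.38 on the log2 scale (SE 0.06, adjusted p = 9.36e-06), and resistant cells with the drug were lower by -1.18 (SE 0.06, adjusted p = 9.38e-06). The difference of 0.21 from DMSO (SE 0.06, adjusted p = 0.0175) lost its call without either resistant library (0.0765 without A and 0.118 without B) and without the trend (0.0626), with adjusted p from 0.0012 to 0.118 over all alternatives.

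GPT2, the mitochondrial alanine aminotransferase, links pyruvate and glutamate to alanine and α-ketoglutarate. It stood at 15.9 and 19.8 TPM with DMSO, 65.5 and 60.4 TPM in parental cells with the drug, and 21.5 TPM in both libraries of resistant cells. Parental cells with the drug were 3.54-fold above DMSO, a log2 difference of 1.77 (SE 0.10, adjusted p = 5.2e-05), and resistant cells lay below them by -1.51 (SE 0.10, adjusted p = 3.85e-05). Against DMSO the resistant cells differed by 0.26 (95% interval 0.02 to 0.51, adjusted p = 0.0703), which was not called. It was called after median-ratio scaling (0.34, adjusted p = 0.045), after upper-quartile scaling (0.33, 0.0454) and without DMSO library B (0.42, 0.00184), within a range of 0.00184 to 0.211.

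BCAT1, the cytosolic aminotransferase of leucine, isoleucine and valine, moved least of the enzymes called in parental cells. Its level was 126 and 105 TPM with DMSO, 174 and 165 TPM in parental cells with the drug, and 111 and 112 TPM in resistant cells. The resistant values fell between the 2 DMSO values. The rise in parental cells was 1.47-fold, or 0.56 on the log2 scale (SE 0.08, adjusted p = 0.00225), and resistant cells with the drug were lower by -0.60 (SE 0.08, adjusted p = 0.000798). The difference of resistant cells from DMSO was -0.04 (95% interval -0.24 to 0.15, adjusted p = 0.691). It was called lower without DMSO library B (-0.17, adjusted p = 0.0134), and its sign turned under both scalings and without DMSO library A, with adjusted p from 0.0134 to 0.812.

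PCK2, the mitochondrial phosphoenolpyruvate carboxykinase, turns oxaloacetate into phosphoenolpyruvate and can feed serine and glycerol synthesis. It was at 28.4 and 25.2 TPM with DMSO, 72.9 and 74.6 TPM in parental cells with the drug, and 38.4 and 41.3 TPM in resistant cells with it. The groups were separate and the resistant cells lay between the others. The log2 differences were 1.43 (SE 0.07, adjusted p = 3.3e-05) for the drug in parental cells, -0.87 (SE 0.07, adjusted p = 8.84e-05) for resistant against parental cells with the drug, and 0.56 (SE 0.07, adjusted p = 0.000829) for resistant cells against DMSO.

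Of the 2 enzymes of proline synthesis, PYCR1 was called for the drug in parental cells and ALDH18A1 was not. PYCR1, the mitochondrial reductase that completes proline, measured 149 and 123 TPM with DMSO, 269.5 and 274 TPM in parental cells with the drug, and 238 and 229.9 TPM in resistant cells. All 4 libraries with the drug lay above both DMSO libraries, and the resistant pair lay below the parental pair. The drug's difference in parental cells was 1.997-fold, or 0.9985 on the log2 scale (SE 0.08, adjusted p = 0.000237), and resistant cells exceeded DMSO by 0.78 (SE 0.08, adjusted p = 0.000289). The difference of -0.22 between resistant and parental cells with the drug (95% interval -0.41 to -0.02, adjusted p = 0.0605) was not called. Its interval uses a spread shared with the DMSO libraries, which were 1.21-fold apart, against 1.02-fold and 1.04-fold in the parental and resistant pairs compared. It was called in a fit of those 4 libraries alone (0.00056) and without either DMSO library (0.000631 without A, 0.000605 without B), with adjusted p from 0.00056 to 0.329 over the alternatives.

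ALDH18A1, the enzyme that turns glutamate into the precursor used by PYCR1 and by ornithine synthesis, was at 51.3 and 44.4 TPM with DMSO, 48.7 and 46.3 TPM in parental cells with the drug, and 36.4 and 33.9 TPM in resistant cells. The parental groups overlapped, and both resistant libraries were below all 4 of them. The drug's difference in parental cells was -0.01 (95% interval -0.20 to 0.19, adjusted p = 0.956). Its sign turned without DMSO library A and without drug-treated parental library B. Resistant cells were lower than DMSO by -0.43 (SE 0.08, adjusted p = 0.00411) and lower than parental cells with the drug by a similar amount, with an adjusted p of 0.00378. The ratio of PYCR1 to ALDH18A1 was 2.78 to 2.91 with DMSO, 5.54 to 5.92 in parental cells with the drug and 6.55 to 6.78 in resistant cells.

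CBS and CTH carry out the consecutive steps of transsulfuration, in which CBS joins homocysteine and serine into cystathionine and CTH splits it to cysteine. CBS was at 22.1 and 15.6 TPM with DMSO, 52.9 and 54.9 TPM in parental cells with the drug, and 61.1 and 65.3 TPM in resistant cells with it. It was the 1 enzyme of the 10 with its highest levels in resistant cells. The drug raised it in parental cells 2.86-fold, by 1.49 on the log2 scale (SE 0.14, adjusted p = 0.000399), and resistant cells exceeded DMSO by 1.71 (SE 0.14, adjusted p = 9.48e-05). Resistant and parental cells with the drug differed by 0.23 (95% interval -0.11 to 0.56, adjusted p = 0.211), which was not called. The interval uses 1 spread shared by all 3 groups. The DMSO libraries were 1.42-fold apart, against 1.04-fold and 1.07-fold in the parental and resistant pairs compared. It was called in a fit of those 4 libraries (0.00417) and without either DMSO library (0.00543 without A, 0.00505 without B), with adjusted p from 0.00417 to 0.491.

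CTH, by contrast, stood at 3.60 and 2.39 TPM with DMSO, 26.4 and 27.0 TPM in parental cells with the drug, and 4.13 and 4.35 TPM in resistant cells. The resistant libraries lay close to DMSO. The drug's rise in parental cells was 8.92-fold, or 2.81 on the log2 scale (SE 0.15, adjusted p = 4.01e-05), and resistant cells were 6.30-fold below them, by -2.40 (SE 0.15, adjusted p = 2.76e-05), the largest fall of the 10 enzymes in that comparison. Against DMSO the difference was 0.41 (95% interval 0.05 to 0.77, adjusted p = 0.0599) and was not called. It was called after median-ratio scaling (0.47, 0.0285), after upper-quartile scaling (0.46, 0.032) and without DMSO library A (0.63, 0.00162), with adjusted p from 0.00162 to 0.214. The ratio of CTH to CBS was 0.154 to 0.163 with DMSO, 0.492 to 0.500 in parental cells with the drug and 0.0666 to 0.0676 in resistant cells.

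CHAC1, a cytosolic γ-glutamylcyclotransferase, cuts glutathione into 5-oxoproline and cysteinylglycine. It measured 1.71 and 0.91 TPM with DMSO, 34.9 and 36.7 TPM in parental cells with the drug, and 12.6 and 12.3 TPM in resistant cells. The 3 groups were far apart, although the DMSO pair itself differed 1.88-fold. In parental cells the log2 difference was 4.02 (SE 0.16, adjusted p = 1.02e-05), rank 9 of all tested genes from the top. Resistant cells with the drug were 2.88-fold below parental cells with it, by -1.45 (SE 0.16, adjusted p = 3e-04), and 9.49-fold above DMSO, by 2.56 (SE 0.16, adjusted p = 3.46e-05). As CHAC1 is low with DMSO, the size depends on the pseudocount, and the last difference was 1.47 with a pseudocount of 5.

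**Figure D2:**
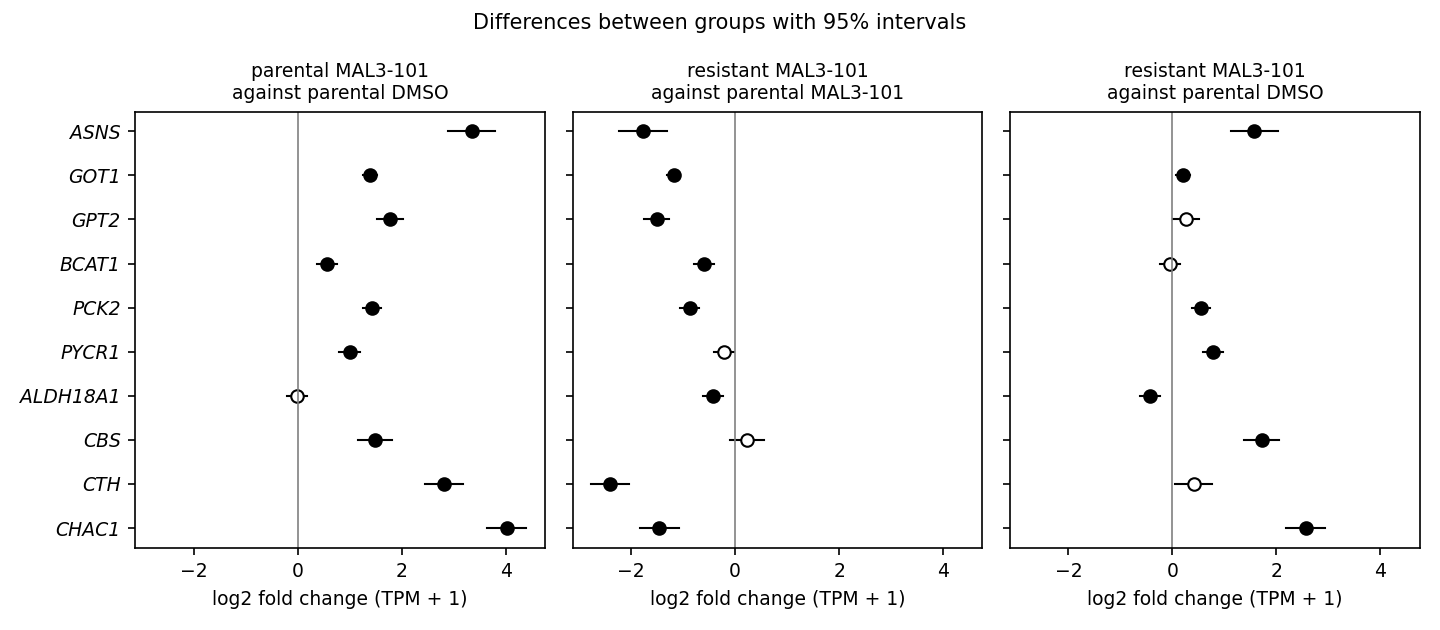
Log2 fold changes of the 10 enzymes on the log2(TPM + 1) scale in the 3 comparisons, with lines for the 95% interval of the limma fit, filled points for called differences and open points for the rest. CHAC1, ASNS and CTH lie farthest right for the drug in parental cells, CTH lies farthest left for resistant against parental cells, and ALDH18A1 sits at -0.01 in the first comparison.

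The DMSO libraries differed more between themselves than the others did for these enzymes. DMSO library A was above B for 9 of the 10, GPT2 being the exception, and the 2 libraries were 1.09-fold to 1.88-fold apart, with ASNS, CHAC1, CTH and CBS over 1.4-fold. The median over all tested genes was 1.13-fold. Within the parental pair with the drug the enzymes were 1.01-fold to 1.08-fold apart, and within the resistant pair at most 1.08-fold. Leaving out either DMSO library changed no call for the drug in parental cells among the 10, and the log2 difference of ASNS, for example, ranged from 2.996 to 3.69 over the alternatives.

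Closely related enzymes gave a comparison by gene family. GOT2, the mitochondrial partner of GOT1, was at 185 and 173 TPM with DMSO, 123 and 122 TPM in parental cells with the drug, and 191 and 193 TPM in resistant cells. It moved opposite to GOT1, by -0.54 (adjusted p = 0.000332 in limma) for the drug in parental cells and 0.64 (adjusted p = 5.38e-05) for resistant against parental cells, and these directions held under both scalings. The ratio of GOT1 to GOT2 was 0.393 to 0.399 with DMSO, 1.51 to 1.53 in parental cells with the drug and 0.424 to 0.431 in resistant cells.

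CHAC2, the relative of CHAC1 that also degrades glutathione, was at 15.1 TPM in both DMSO libraries, 13.0 and 15.7 TPM in parental cells with the drug, and 10.2 and 11.2 TPM in resistant cells. Its difference for the drug in parental cells was -0.08 (adjusted p = 0.613) and was not called. Its lower level in resistant than in parental cells with the drug, -0.38 (adjusted p = 0.0204), was not called under either scaling, without the filter, without parental library B with the drug or without either resistant library. The ratio of CHAC1 to CHAC2 went from 0.0603 to 0.114 with DMSO, to 2.35 to 2.69 in parental cells with the drug and 1.09 to 1.24 in resistant cells. With DMSO, CHAC2 was thus the more abundant of the pair per length, and with the drug CHAC1 was.

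ASNSD1, which carries an asparagine synthetase domain, was higher by 0.33 with the drug in parental cells (adjusted p = 0.00257) and by 0.59 in resistant cells against DMSO (adjusted p = 0.000114). The ratio of ASNS to ASNSD1 ran from 0.176 to 0.274 with DMSO, from 1.83 to 1.89 in parental cells with the drug and from 0.434 to 0.465 in resistant cells. BCAT2, the mitochondrial partner of BCAT1, differed by -0.17 for the drug in parental cells (adjusted p = 0.216). It was higher by 0.36 in resistant than in parental cells with the drug (adjusted p = 0.0173), a call that was lost without the filter and when any 1 of those 4 libraries was left out. PYCRL, related to PYCR1, was called in none of the 3 comparisons. GPT and PCK1, the cytosolic counterparts of GPT2 and PCK2, stayed at or below 0.62 and 0.22 TPM and were not tested. Of the 6 related genes tested, 1 was called higher and 1 lower for the drug in parental cells, with a median of -0.14, against 22.6% and 18.2% of all tested genes. Under either scaling 1 of the 6 was called higher and 3 lower. Of all 15148 tested genes 3199 were then higher and 3133 lower with median-ratio scaling, and 2996 and 3413 with upper-quartile scaling.

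**Figure D3:**
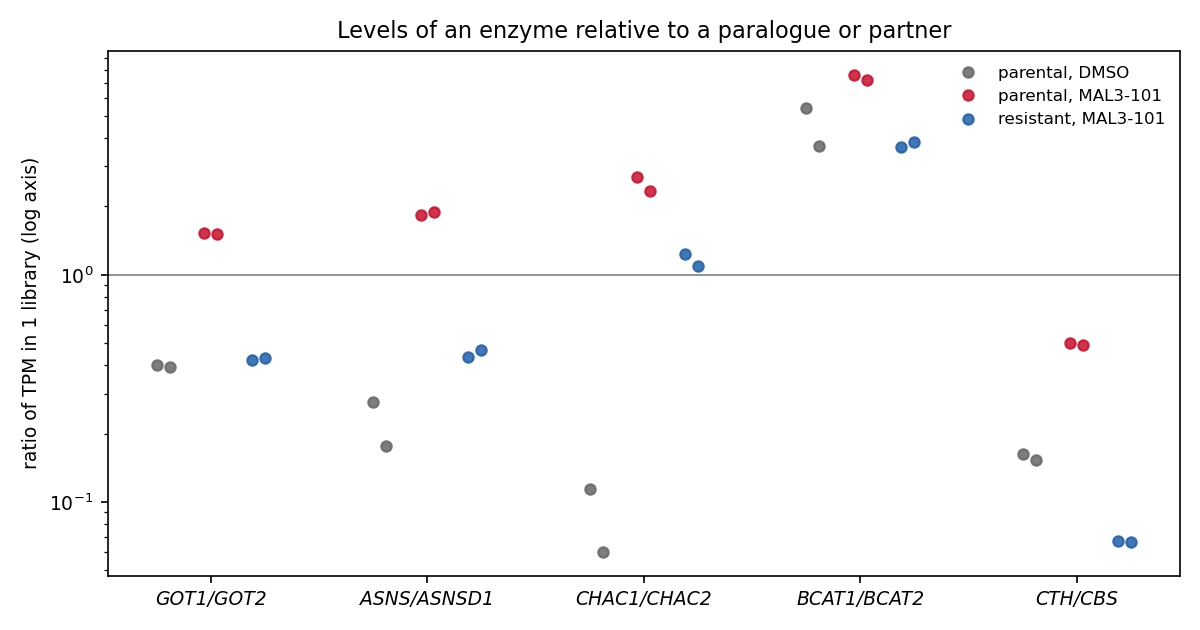
Ratio of TPM between an enzyme and a related enzyme, on a log axis, with 1 point per library in each group. GOT1/GOT2 and ASNS/ASNSD1 are above 1 only in parental cells with the drug, CHAC1/CHAC2 is above 1 in all 4 libraries with the drug, and CTH/CBS is lowest in resistant cells.

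Around these enzymes, lists of other genes of the same pathways were counted. The lists overlap in a few genes, and many of their counts lie near the shares over all tested genes. For the drug in parental cells those shares were 22.6% higher and 18.2% lower, and for resistant against parental cells with the drug 21.3% higher and 34.8% lower. Of 13 tested genes of glutathione synthesis and recycling, 2 were called higher, 4 lower and 7 not for the drug in parental cells, with a median of -0.15, where 22.6% of all tested genes were higher and 18.2% lower. GCLC and GCLM, the subunits of the rate-limiting glutamate-cysteine ligase, differed by 0.37 (adjusted p = 0.0962) and -0.06 (adjusted p = 0.769), and neither was called in any of the 3 comparisons. GSS, glutathione synthetase, differed by 0.07 for the drug in parental cells (adjusted p = 0.482) and was higher by 0.36 in resistant than in parental cells with the drug (adjusted p = 0.00446).

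GPX4, the peroxidase that reduces lipid peroxides with glutathione, was at 209 and 220.4 TPM with DMSO, 164 and 162 TPM in parental cells with the drug, and 211 and 214 TPM in resistant cells. It fell by 0.40 on the log2 scale with the drug in parental cells (adjusted p = 0.000867) and was 0.38 higher in resistant cells with it (adjusted p = 0.000424). GLRX2, a mitochondrial glutaredoxin, rose by 0.70 (adjusted p = 0.000881) in parental cells and was lower by -1.26 in resistant cells (adjusted p = 2.99e-05). GPX7 stood at 12.0 and 9.46 TPM with DMSO and 10.1 and 8.46 TPM in parental cells with the drug, but at 0.18 and 0.19 TPM in resistant cells, a difference of -3.11 from parental cells with the drug (adjusted p = 1.09e-05). GPX1 was also lower in resistant cells, by -1.02 (adjusted p = 2.25e-05).

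In the list of glutathione breakdown, 2 of 10 tested genes were called higher, 1 lower and 7 not for the drug in parental cells. Resistant against parental cells with the drug gave 2 higher and 5 lower, where 21.3% of all tested genes were higher and 34.8% lower. Under either scaling 4 were higher and 3 lower. Of all 15148 tested genes 4220 were then higher and 4362 lower with median-ratio scaling, and 4333 and 4237 with upper-quartile scaling. GGT1, a γ-glutamyltransferase of the cell surface, was at 4.82 and 6.68 TPM with DMSO, 8.82 and 6.70 TPM in parental cells with the drug, and 1.02 and 0.89 TPM in resistant cells. The parental difference of 0.38 was not called (adjusted p = 0.142), and the resistant cells were lower by -2.15 (adjusted p = 9.13e-05).

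Upstream of CBS, MAT2A, which makes S-adenosylmethionine from methionine, was at 397 and 432 TPM with DMSO, 198 and 202 TPM in parental cells with the drug, and 246 and 251 TPM in resistant cells. It fell with the drug in parental cells by 1.04 on the log2 scale (adjusted p = 2.68e-05), opposite in direction to CBS and CTH. ETHE1, a mitochondrial enzyme of sulfide oxidation, was lower in resistant than in parental cells with the drug by -1.49 (adjusted p = 5.55e-05). Of 14 tested genes of methionine metabolism and transsulfuration, 2 were called higher, 3 lower and 9 not for the drug in parental cells, with a median of 0.03. Between resistant and parental cells with the drug 6 were called higher, 3 lower and 5 not, against 21.3% and 34.8% of all tested genes higher and lower. Under either scaling 8 were higher, where 4220 (median-ratio) and 4333 (upper-quartile) of all 15148 tested genes were.

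Among 10 other tested aminotransferases, 3 were called higher, 3 lower and 4 not for the drug in parental cells, with a median of -0.02. PSAT1, the aminotransferase of serine synthesis, had the same order of groups as ASNS, with 92.0 and 73.2 TPM with DMSO, 233 and 244 TPM in parental cells with the drug, and 150.3 and 154 TPM in resistant cells. It rose by 1.53 (adjusted p = 7.83e-05) in parental cells and was lower by -0.65 in resistant cells with the drug (adjusted p = 0.00121). ABAT, which transfers the amino group of γ-aminobutyrate, rose by 0.68 in parental cells (adjusted p = 0.00212) and was lower by -1.33 in resistant cells (adjusted p = 5.16e-05).

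Of 11 tested genes that handle glutamine and glutamate, 2 were called higher, 5 lower and 4 not for the drug in parental cells, with a median of -0.09, against 22.6% and 18.2% of all tested genes higher and lower. CAD, of pyrimidine synthesis, fell by 0.64 (adjusted p = 0.000255) and PFAS, of purine synthesis, by 0.54 (adjusted p = 0.000707).

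Besides ASNS and GOT1, 7 genes of asparagine and aspartate metabolism were tested, of which 2 were called higher, 1 lower and 4 not for the drug in parental cells. For proline and ornithine 0 of 4 were called higher and 1 lower, which was OAT, ornithine aminotransferase, at -0.36 (adjusted p = 0.00587). Under either scaling 3 of the 4 were called lower, where 3133 (median-ratio) and 3413 (upper-quartile) of all 15148 tested genes were. For phosphoenolpyruvate, pyruvate and malate 0 of 6 were called higher and 3 lower, among them PKM, the pyruvate kinase gene, at -0.59 (adjusted p = 0.000933). In resistant against parental cells with the drug 5 of those 6 were called higher, among them PC, pyruvate carboxylase, at 0.69 (adjusted p = 0.00239).

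Downstream of BCAT1, the breakdown of branched-chain amino acids had 7 of 24 tested genes called higher, 2 lower and 15 not for the drug in parental cells, with a median of 0.21, where 22.6% of all tested genes were higher and 18.2% lower. MCEE, an epimerase of propionate metabolism, rose by 0.88 (adjusted p = 0.000534) in parental cells. ACAT1, a thiolase of isoleucine breakdown, was higher by 0.77 in resistant than in parental cells with the drug (adjusted p = 0.000347). Against DMSO, resistant cells had 8 of the 24 called higher and 5 lower, where 20.9% of all tested genes were higher and 29.7% lower on the TPM scale. Under median-ratio and upper-quartile scaling 14 and 12 were called higher, where 3972 and 3867 of all 15148 tested genes were.

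**Figure D4:**
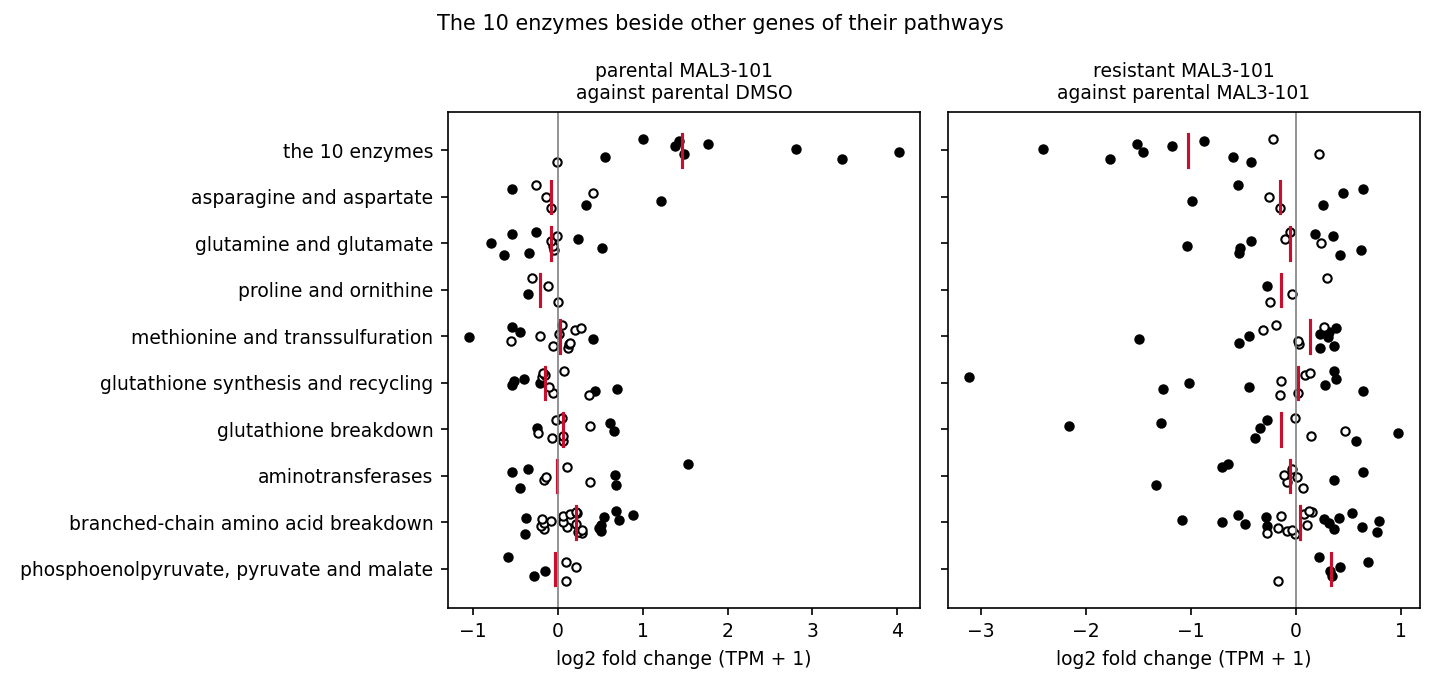
Log2 fold changes of every tested gene in the pathway lists drawn, on the log2(TPM + 1) scale, for the drug in parental cells and for resistant against parental cells with the drug, with a filled point per called gene, an open point per gene not called and a bar at the list's median. The 10 enzymes have medians of 1.46 and -1.03, while the medians of the other lists drawn lie between -0.21 and 0.33.

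The genes with the most similar patterns were taken as those at the smallest Euclidean distance over the 6 libraries, after each gene's log2(TPM + 1) was centred on its mean. MTHFD2, of mitochondrial folate metabolism, was nearest to GOT1 at a distance of 0.07, and it stood at 170.3 and 166 TPM with DMSO, 453 and 451 TPM in parental cells with the drug, and 198 and 201 TPM in resistant cells. SLC7A11, the cystine transporter, was nearest to CHAC1 at 0.93, and SLC1A4, a transporter of neutral amino acids, was nearest to CTH at 0.33. SARS, the cytosolic seryl-tRNA synthetase, was nearest to PCK2 at 0.09. The next nearest were SBK2 and BRAF for GOT1, and TRIB3 and INHBE for CHAC1. For CTH they were NR1D1 and RFPL4A, and for PCK2 SYNGR2 and ARHGEF2. For ASNS the nearest gene was ARHGAP9 at 0.61, followed by EGR2 and DDIT4.

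The other enzymes had nearest genes outside amino acid metabolism for the most part. SNHG17 was nearest to GPT2 at 0.15, followed by EIF2AK3, the eIF2α kinase PERK, at 0.21 and H1F0 at 0.27. ZEB1 was nearest to PYCR1 at 0.11, ACADL to CBS at 0.22, NAA60 to ALDH18A1 at 0.03 and AGO4 to BCAT1 at 0.06. The next nearest were MEF2A and KRCC1 for PYCR1, and SLMO1 and SCARA5 for CBS. For ALDH18A1 they were TMEM59 and SAP30, and for BCAT1 MSH3 and CEP57. Small distances also arise for genes that move little, so the distances are not comparable between enzymes. Among the 10 enzymes themselves the closest pair was GOT1 and PCK2, at 0.39.

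Reads of overlapping genes limit a few of these values. In GENCODE release 29, by gene name, exons of PYCR1 overlap MYADML2 on the same strand, at 0.31 to 3.77 TPM in these libraries, and exons of ASNS overlap AC079781.5, which is listed at 0. Exons of PYCR1, GOT1 and BCAT1 also overlap genes on the opposite strand that are not rows of the files. Whether the counting used strand is not given in the sources used here.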

How the data were processed

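RNA was measured in 6 libraries of 2 cell lines, 2 libraries in each of 3 groups. The submitters' processing notes name RSEM, DESeq and hg19. The aligner, annotation, strand use and all versions were not given in the sources used here. What the authors deposited was TPM per gene name with 2 decimals, 1 file per library, and no depth. From these, log2(TPM + 1) was computed, so fold changes understate the change of low genes. limma 3.58.1 in R 4.3.3 fitted a mean per group to the 6 libraries together, with a trend of variance on level (3 residual and 4.17 prior degrees of freedom, median SE 0.105). Each gene thus has the same SE in all 3 comparisons. The wider spread of the DMSO pair enters the comparison without DMSO, and the narrower pairs enter those with it. P-values were adjusted by Benjamini-Hochberg over the 15148 tested genes of a comparison. Folds of mean TPM carry no pseudocount.

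The 10 enzymes and the gene lists were chosen with earlier results of these data known. The pathway genes named are from up to 4 called genes per list and comparison with the largest change and a group mean of 5 TPM or more. GCLC, GCLM, GSS and GPX4, and the uncalled values of named genes, were added after their values were seen. A few genes that this rule names are not reported here. Up to 3 nearest genes per enzyme came from genes of 5 TPM or more. Of 200 listed symbols 198 were found, 6 of them under an older symbol. The fit was also run on simulated data with known changes. There each gene had the same spread in all groups, unlike these libraries. That run cannot show how the fit handles the wider DMSO pair. Alternatives were pseudocounts of 0.1 and 5, no filter, a filter of 5 TPM, only the 4 libraries compared, a replicate block, no trend, 2 scalings, removal of mitochondrial genes, and each library left out. No label tells whether the letters A and B pair libraries, and the main fit had no replicate block. Deviations from group means of libraries with the same letter correlated at 0.03, -0.02 and -0.02. These values show no strong shared shift but cannot settle whether libraries were paired. Figures used Python 3.11.15 and matplotlib 3.10.9.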

Additional observations from a re-analysis of the deposited data

How the results depend on the processing

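Of 480 values of the 10 enzymes under 16 alternatives, 458 kept their direction and side of the threshold, 3 lost the call, 14 gained one and 5 turned in sign. The calls for the drug in parental cells were kept under all 16, as were the 8 lower calls of resistant against parental cells with the drug. The genes called for the drug in parental cells numbered 6181, and 3169 to 7684 with 1 library left out; for resistant cells against DMSO they were 7662, and 5001 to 8640. Leaving out a library leaves a lone one in its group, assumed to vary like the others. Enzymes called higher in resistant than in parental cells with the drug numbered 0, but 1 with only the 4 libraries compared (CBS) and 0 to 1 with a library left out; those called lower than DMSO numbered 1, and 1 to 2 with a library left out. ALDH18A1 for the drug in parental cells ranged from -0.109 to 0.0952 with a library left out. BCAT1 in resistant cells against DMSO was 0.0321 and 0.0229 under median-ratio and upper-quartile scaling, and -0.172 to 0.0861 with a library left out. With a replicate block the calls numbered 5942, 8381 and 7492 in the 3 comparisons, against 6181, 8495 and 7662. The block turned PYCR1 into a lower call for resistant against parental cells with the drug (adjusted p = 0.0485), and changed no other call of the 10. Except where a value above names it, the cause of a change was not tested.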

Other observations

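Arginine and polyamine metabolism, which branches from the same glutamate and ornithine pool, was counted as a further list. Of 14 tested genes 4 were called higher, 3 lower and 7 not for the drug in parental cells, with a median log2 fold change of 0.08, where 22.6% of all tested genes were higher and 18.2% lower. In resistant against parental cells with the drug 4 were higher and 7 lower, with a median of -0.30, where 21.3% of all tested genes were higher and 34.8% lower. Under either scaling 5 were higher and 6 lower. Of all 15148 tested genes 4220 were then higher and 4362 lower with median-ratio scaling, and 4333 and 4237 with upper-quartile scaling. SAT1, which acetylates spermidine and spermine for breakdown, was at 21.0 and 20.7 TPM with DMSO, 65.5 and 62.1 TPM in parental cells with the drug, and 12.5 TPM in both resistant libraries. It rose by 1.57 (adjusted p = 1.23e-05 in limma) in parental cells and was lower by -2.26 in resistant cells with the drug (adjusted p = 1.51e-06). SMOX, spermine oxidase, rose by 0.85 (adjusted p = 0.00109) and was lower by -1.05 in resistant cells (adjusted p = 0.000186).

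CPS1, carbamoyl-phosphate synthetase of the urea cycle, was at 8.22 and 8.08 TPM with DMSO, 8.61 and 8.18 TPM in parental cells with the drug, and 2.43 and 2.64 TPM in resistant cells, a difference of -1.41 from parental cells with the drug (adjusted p = 5.93e-05). GATM, the first enzyme of creatine synthesis, was at 82.7 and 55.7 TPM with DMSO, 54.9 and 51.7 TPM in parental cells with the drug, and 136 and 131 TPM in resistant cells, a difference of 1.31 (adjusted p = 0.000416).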
